A study of Caenorhabditis elegans with 34 samples.

Results

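The transcript levels of 9 autophagy genes, lgg-1, lgg-2, sqst-1, bec-1, unc-51, atg-7, atg-9, atg-18 and epg-5, and of hlh-30, which encodes a transcription factor that regulates this pathway, were followed in whole Caenorhabditis elegans on days 1 to 12. The genes were chosen by name, and all 10 were found among the 20222 genes of the count table. RNA-seq counts were analysed for 34 samples, of which days 8 and 12 had 2 each and every other day had 3. All animals carried the temperature-sensitive spe-9(hc88) mutation, which prevents self-fertilization at 25°C, so the adults on the plates had no progeny. Cultures were synchronized by hypochlorite treatment, kept at 25°C on plates and harvested every 24 h, counting from the first exposure to food. Day 1 animals were therefore still larvae, while the later days cover adult life. The labels distinguish the groups by age alone, and no group of another genotype was analysed here. Each sample was the RNA of a whole population, so that healthy and frail animals of a day were measured together.

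Autophagy encloses parts of the cytoplasm in a double membrane, the autophagosome, which then fuses with the lysosome, where the contents are digested. A kinase complex starts the process, a lipid kinase complex marks the site, conjugation enzymes attach small ubiquitin-like proteins to the growing membrane, and receptors bring in the cargo. In the worm, HLH-30 is the counterpart of mammalian TFEB, and it activates autophagy and lysosomal genes when it enters the nucleus. Autophagy genes are known in this animal for being required in many of the mutants that live long. The level of a transcript measures neither the entry of HLH-30 into the nucleus nor the passage of material through the pathway.

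The number of reads assigned to genes lay between 19202058 and 27587987 in a sample, with a median of 21606958.5. Counts of the 10 genes lay between 45 and 28363 in a sample, so that even the least abundant gene was counted in every sample. Levels are given as CPM, the counts of a gene relative to all counts of its library, scaled by the TMM method, which takes most genes as unchanged. No 2 samples of a day were alike within sampling noise, and the lowest chi-square per degree of freedom among 32 same-day pairs was 9.19. The libraries differed in how their levels followed transcript length. The slope of the log2 level on log2 length lay between 0.22 and 0.31 on day 1, between -0.071 and 0.060 on day 2, and between 0.079 and 0.20 on days 8 to 12, while day 4 replicate 2 had a slope of -0.59 and day 5 replicate 3 a slope of -0.54. These 2 libraries stood apart from all others, with low values for long transcripts, and some of the results below are also given without them. The slope was -0.27 to -0.0015 on day 3, -0.25 to 0.012 on day 6 and -0.032 to 0.079 on day 7. The other libraries had -0.13 and -0.20 on day 4 and -0.12 and -0.30 on day 5. The slope thus differed between the adult days, and leaving out the 2 libraries does not remove this difference. The summed level of 8 germline markers was 6351 to 6987 CPM on day 2, against 45.8 to 82.5 CPM on day 1, and 8 of 8 rose. Between days 1 and 2, 3 of 8 intestinal markers rose and 4 fell, and of 6 muscle markers 0 rose and 2 fell. Of 7 neuronal markers 1 rose and 6 fell, and of 4 detected hypodermal markers 1 rose and 3 fell. Of all genes tested 37.5% rose and 37.9% fell between these days. The summed level of 8 intestinal markers was 4115 to 10246 CPM on day 7, against 26862 to 32780 CPM on day 2. The yolk protein genes vit-2 and vit-6 made up most of it. Of these 8, 5 fell (ges-1, ifb-2, act-5, pept-1 and vit-6) and 1 rose (mtl-1, by 2.85 log2). The estimate for vit-2 was -1.99 log2 (adjusted p = 0.0145, edgeR). The summed level of 6 muscle markers was 160.0 to 220.1 CPM on day 7, against 906 to 2539 CPM on day 2. Of these 6, 3 fell (unc-54, unc-15 and unc-27, most of the day 2 sum) and 0 rose. The estimate for myo-1 was 1.10 log2 (adjusted p = 0.111, edgeR). The summed level of 6 hypodermal markers was 38.8 to 47.1 CPM on day 7, against 1206 to 2255 CPM on day 2. On day 2 col-19 made up most of this sum. Of the 4 detected hypodermal markers 1 fell (col-19) and 1 rose (dpy-7, 0.151 CPM on day 2 and 3.72 CPM on day 7). The hypodermal marker rol-6 was at 0 in all samples of day 2, whereas no germline, intestinal, muscle or neuronal marker was at 0 in all samples of day 1, 2, 7 or 11. In these bulk samples fewer cells of a type and less RNA per cell cannot be told apart, and the part of changing tissue proportions in the values that follow was not tested.

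**Figure D1:**
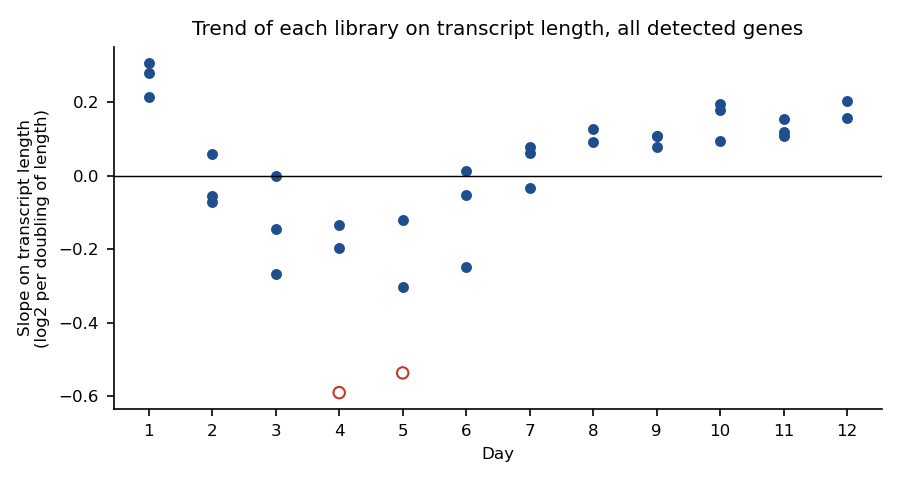
Slope of the log2 level on log2 transcript length in each library (vertical axis, log2 per doubling of length) by day (horizontal axis), over all detected genes. The open red points are day 4 replicate 2 at -0.59 and day 5 replicate 3 at -0.54, the lowest of the series.

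The question for the adult series was whether the autophagy genes changed with age. Of the 10 genes, 8 changed between days 2 and 12, against 80.3% of all 13865 detected genes, so the share of changed genes was that of the background. By the linear coefficient of age, 7 of the 10 rose, against 36.9% of all detected genes, and 0 fell, against 33.9%. Their median linear coefficient was 0.066 log2 per day, against 0.0063 over all detected genes. The age model was a third-degree polynomial tested with edgeR's quasi-likelihood method, and a coefficient was called at an adjusted p-value under 0.01 (Benjamini-Hochberg over all detected genes). No negative linear coefficient passed an unadjusted threshold of 0.05 either, and DESeq2 also called 0. Without the 2 libraries apart in their length trend, an alternative chosen after seeing the data, the counts were again 8 changed, 7 risen and 0 fallen. The shares of all genes tested were then 82.3%, 38.3% and 34.5%. When the length trend of each library was removed, 6 of the 10 rose, against 33.8% of all genes fitted, and 2 fell, against 34.9%. With day as a factor tested jointly 4 of the 10 changed (sqst-1, bec-1, atg-7 and epg-5), against 67.5% of all detected genes.

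**Figure D2:**
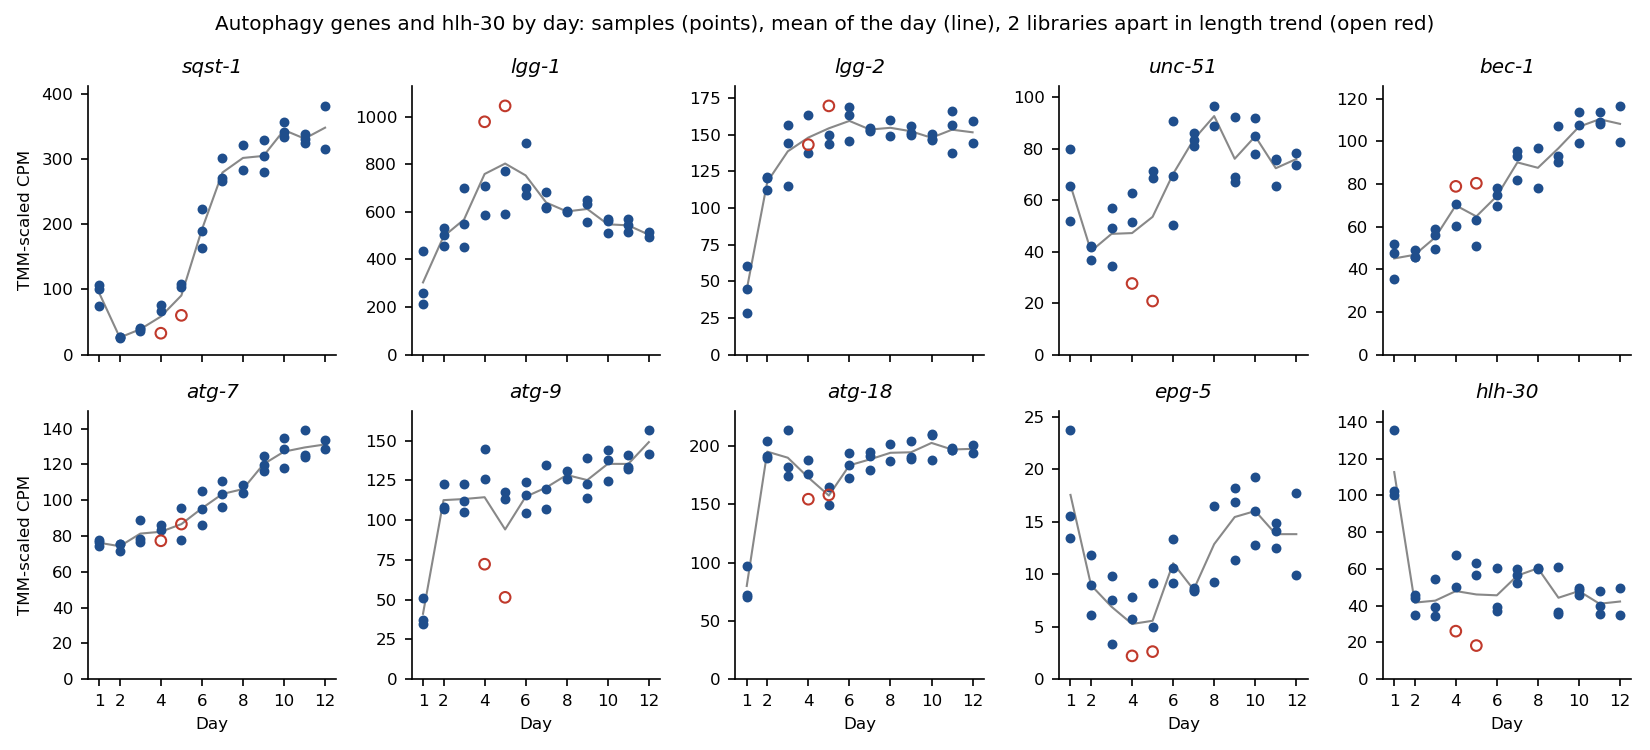
Level of each gene (vertical axis, TMM-scaled CPM, with its own scale in each panel) by day (horizontal axis). Points are samples, the line joins the daily means, and open red points are the 2 libraries apart in length trend. The level of sqst-1 was lowest on day 2 and 266 CPM or more in every sample from day 7 onwards, while hlh-30 was highest on day 1.

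The largest change was that of sqst-1 (WBGene00011737; chromosome IV, 12034282 to 12036891, + strand, WBcel235), which encodes the worm counterpart of the cargo receptor p62, a protein that binds ubiquitinated cargo and LGG proteins and is itself degraded by autophagy. Its 3 samples had 74.9, 107 and 101 CPM on day 1, 25.3, 26.8 and 26.3 CPM on day 2, and 103, 109 and 60.2 CPM on day 5. They had 301, 271 and 266 CPM on day 7 and 330, 325 and 339 CPM on day 11, and the 2 samples of day 12 had 315 and 382 CPM. Every sample from day 7 onwards lay above every sample of days 1 to 6. The mean of day 12 was 13.3 times that of day 2, the highest and the lowest of the 12 daily means. The linear coefficient was 0.40 ± 0.018 log2 per day (SE, adjusted p = 6.06e-18, edgeR), and 2.35% of the detected genes had a larger one. The quadratic coefficient also passed the threshold (adjusted p = 2.03e-08, edgeR), and the daily mean climbed most between days 5 and 7. The linear coefficient stayed called in every alternative run, between 0.32 and 0.45 log2 per day, and it was 0.37 log2 per day after removal of the length trend.

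Among the genes that start autophagy and mark its site, both rose. The gene unc-51 (WBGene00006786; chromosome V, 19995986 to 20004485, - strand), which encodes the protein kinase of the induction complex, had 86.2, 83.4 and 81.0 CPM on day 7, against 42.1, 36.7 and 41.7 CPM on day 2, with no overlap. Its linear coefficient was 0.10 ± 0.020 log2 per day (SE, adjusted p = 2.67e-05, edgeR), and this coefficient kept its call in every alternative, at 0.045 log2 per day after removal of the length trend. With day as a factor tested jointly unc-51 was not called (adjusted p = 0.0138, edgeR). Its lowest values were the 27.6 CPM of day 4 replicate 2 and the 20.8 CPM of day 5 replicate 3, the libraries with the lowest length slopes. The gene bec-1 (WBGene00000247; chromosome IV, 5661141 to 5664425, - strand) encodes the Beclin subunit of the VPS-34 lipid kinase complex. It had 48.9, 46.0 and 45.6 CPM on day 2, 93.2, 95.3 and 82.0 CPM on day 7 and 109, 114 and 108 CPM on day 11. The samples of these 3 days did not overlap. Its linear coefficient was 0.12 ± 0.0094 log2 per day (SE, adjusted p = 4.2e-13, edgeR), and it lay between 0.11 and 0.17 log2 per day, always called, in the alternatives.

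The conjugation enzyme and its substrates differed in size of change. The gene atg-7 (WBGene00010882; chromosome IV, 11078682 to 11081055, - strand), which encodes the E1-like enzyme that activates the ubiquitin-like proteins, had 75.7, 75.6 and 71.5 CPM on day 2, 103, 96.2 and 111 CPM on day 7 and 139, 124 and 125 CPM on day 11. Its samples did not overlap among these days, and its linear coefficient of 0.09 ± 0.0060 log2 per day (SE, adjusted p = 2.52e-14, edgeR) held in every alternative, at 0.063 log2 per day or more. The gene lgg-2 (WBGene00002981; chromosome IV, 10934196 to 10935903, - strand), which encodes an LC3-like protein attached to autophagosomes, had 157, 138 and 166 CPM on day 11, against 120, 112 and 121 CPM on day 2. Its linear coefficient was small, at 0.022 ± 0.0065 log2 per day (SE, adjusted p = 0.0025, edgeR). It lost its call without the filter on low counts (adjusted p = 0.113, edgeR), without replicate 1 (adjusted p = 0.0371, edgeR) and without replicate 2 (adjusted p = 0.0234, edgeR).

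The gene lgg-1 (WBGene00002980; chromosome II, 6346960 to 6347719, - strand) encodes the GABARAP-like protein of autophagosomes that is used as their marker in worms, and it was the most abundant of the 10 transcripts. It had 532, 456 and 501 CPM on day 2, 593, 771 and 1050 CPM on day 5, and 568, 515 and 547 CPM on day 11. The daily mean was highest on day 5, at 803 CPM. The 2 highest values of the whole series were 1050 CPM in day 5 replicate 3 and 979 CPM in day 4 replicate 2. These are the 2 libraries with the lowest length slopes, in which short transcripts are high relative to long ones. The other samples had 588 and 710 CPM on day 4, 593 and 771 CPM on day 5, and 670, 890 and 699 CPM on day 6. All of these lay above every sample of day 2. The transcript of lgg-1 has 708 bases, and the part of the length trend in these daily levels was not tested. The gene lgg-1 changed by its quadratic coefficient (adjusted p = 0.00074, edgeR), whereas its linear coefficient of -0.021 ± 0.012 log2 per day (SE, adjusted p = 0.108, edgeR) was not called. It was not among the 5 genes changed without replicate 2, nor among the 4 changed with day as a factor (adjusted p = 0.0108, edgeR). With the length trend removed, the linear coefficient was 0.024 log2 per day (adjusted p = 0.00577, edgeR), so its direction turned with this correction.

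The gene atg-9 (WBGene00020706; chromosome V, 349385 to 359658, + strand) encodes the transmembrane protein whose vesicles seed the autophagosome, and it had 133, 141 and 132 CPM on day 11, against 123, 109 and 107 CPM on day 2. Its linear coefficient was 0.042 ± 0.014 log2 per day (SE, adjusted p = 0.00816, edgeR), close to the threshold. It was -0.039 log2 per day (adjusted p = 0.000374, edgeR) after removal of the length trend. It lost its call without replicate 1 (adjusted p = 0.0252, edgeR), without replicate 2 (adjusted p = 0.087, edgeR), with a replicate block (adjusted p = 0.0195, edgeR) and without the filter on low counts (adjusted p = 0.0422, edgeR). With the 3 coefficients tested jointly atg-9 was not called (adjusted p = 0.0253, edgeR), nor with day as a factor (adjusted p = 0.349, edgeR). The gene atg-18 (WBGene00018294; chromosome V, 8629174 to 8631327, - strand), which encodes a WIPI-like protein that binds the lipid made by VPS-34, had 198, 197 and 196 CPM on day 11, against 191, 204 and 190 CPM on day 2, and these ranges overlapped. It was not called by any single coefficient (linear 0.015 ± 0.0065 log2 per day, SE, adjusted p = 0.0303, edgeR). Its linear coefficient was called under 5 alternatives: library size alone, at least 10 counts in every sample, a threshold of 0.05, without replicate 3 and with day 1 added. With the 3 coefficients tested jointly atg-18 was called (adjusted p = 0.00252, edgeR), and with day as a factor it was not (adjusted p = 0.0409, edgeR).

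The gene epg-5 (WBGene00016968; chromosome II, 6598344 to 6609365, - strand) encodes a large tethering factor that lets autophagosomes fuse with late endosomes and lysosomes, and it was the least abundant of the 10. It had 8.99, 11.8 and 6.06 CPM on day 2, 8.42, 8.44 and 8.68 CPM on day 7 and 12.5, 14.8 and 14.1 CPM on day 11. All 3 samples of day 11 lay above those of day 2 and day 7, and the lowest values of the series were 2.21 CPM in day 4 replicate 2 and 2.62 CPM in day 5 replicate 3, the libraries with the lowest length slopes. Its linear coefficient of 0.14 ± 0.028 log2 per day (SE, adjusted p = 4.97e-05, edgeR) was 0.118 log2 per day without these libraries. With 7291 bases its transcript was the longest of the 10, and after removal of the length trend the coefficient was 0.0012 log2 per day (adjusted p = 0.95, edgeR), so the call ended. The exons of epg-5 share 8 bases with vps-33.2 on the opposite strand, and whether the counting used the strand is not given in the sources used here.

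**Figure D3:**
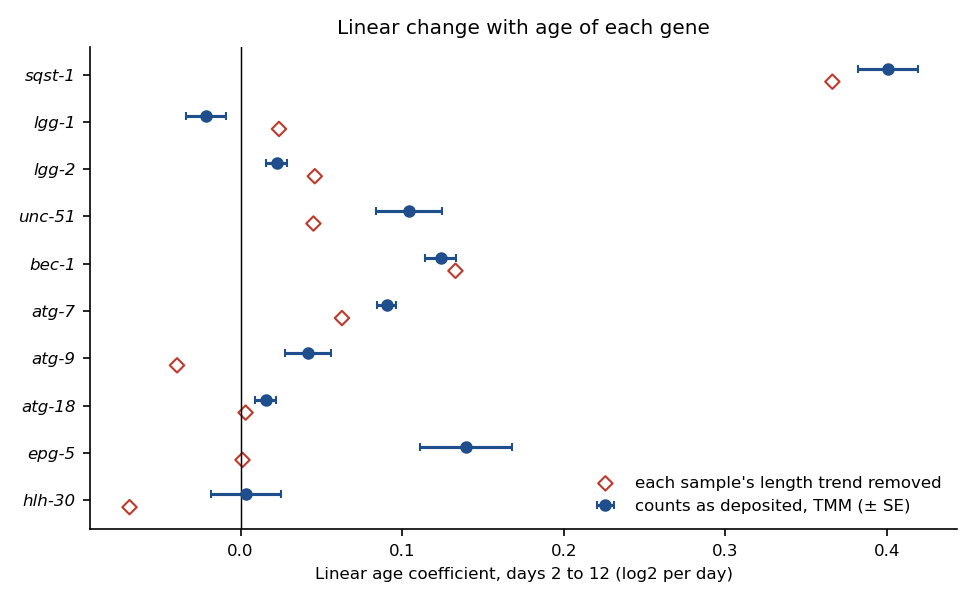
Linear age coefficient (horizontal axis, log2 per day, days 2 to 12) of each gene, with its SE, from the counts as deposited (blue) and after removal of each library's trend on transcript length (red). The coefficient of sqst-1 was 0.40 and 0.37, while those of atg-9 and hlh-30 were 0.042 and 0.0033 from the counts as deposited and -0.039 and -0.069 after the removal.

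The regulator hlh-30 (WBGene00020930; chromosome IV, 4014793 to 4034951, - strand), for which 13 transcripts are annotated that the gene-level counts do not separate, was not called as changed over days 2 to 12. It had 45.8, 35.1 and 44.0 CPM on day 2, 52.3, 59.9 and 56.8 CPM on day 7 and 39.6, 35.6 and 47.8 CPM on day 11. Days 2 and 11 overlapped, and day 7 lay above both. Its linear coefficient was 0.0033 ± 0.022 log2 per day (SE, adjusted p = 0.893, edgeR), its joint test with day as a factor gave an adjusted p of 0.889 (edgeR), and its median coefficient of variation within a day was 21.1%. After removal of the length trend the coefficient was -0.069 log2 per day (adjusted p = 0.000523, edgeR), and without the 2 libraries apart it was -0.0096 log2 per day (adjusted p = 0.582, edgeR). The level of the transcript in these 2 libraries, 26.1 CPM in day 4 replicate 2 and 18.2 CPM in day 5 replicate 3, was the lowest of the series.

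The step between larvae and adults was compared by day 2 against day 1. Of the 10 genes, 6 changed, against 75.4% of all 13785 genes tested, of which 4 rose, against 37.5%, and 2 fell, against 37.9%. The median log2 difference of the 10 genes was 0.0081, against -0.035 over all genes tested. The gene lgg-2 had 120, 112 and 121 CPM on day 2, against 28.1, 60.4 and 44.5 CPM on day 1, a difference of 1.41 ± 0.16 log2 (SE, adjusted p = 9.76e-09, edgeR). The level of atg-9 was 123, 109 and 107 CPM on day 2, against 37.4, 51.2 and 34.6 CPM on day 1, a difference of 1.45 ± 0.22 log2 (SE, adjusted p = 1.37e-06, edgeR). For atg-18 it was 191, 204 and 190 CPM on day 2, against 70.5, 96.8 and 72.5 CPM on day 1, a difference of 1.29 ± 0.11 log2 (SE, adjusted p = 3.02e-11, edgeR). In all 3 genes the days did not overlap. The rise of lgg-1, with 532, 456 and 501 CPM on day 2 against 261, 436 and 213 CPM on day 1, was 0.71 ± 0.22 log2 (SE, adjusted p = 0.00384, edgeR), and it lost its call after removal of the length trend (0.37 log2, adjusted p = 0.0561, edgeR), with library size alone (adjusted p = 0.0142), without replicate 1 (adjusted p = 0.0432), without replicate 3 (adjusted p = 0.0682) and in a fit of the 2 days alone (adjusted p = 0.0211).

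The 2 genes that fell were sqst-1 and hlh-30. The level of sqst-1 was 25.3, 26.8 and 26.3 CPM on day 2, against 74.9, 107 and 101 CPM on day 1, a difference of -1.85 ± 0.22 log2 (SE, adjusted p = 1.43e-08, edgeR). That of hlh-30 was 45.8, 35.1 and 44.0 CPM on day 2, against 100.1, 102 and 135 CPM on day 1, a difference of -1.44 ± 0.33 log2 (SE, adjusted p = 0.000273, edgeR). Both sets of days were apart, with every day 1 sample above every day 2 sample. Without replicate 1 the hlh-30 difference was -1.48 log2 with an adjusted p of 0.0158 (edgeR), past the threshold no longer. The genes unc-51 (-0.71 ± 0.30 log2, SE, adjusted p = 0.0344, edgeR) and epg-5 (-0.97 ± 0.41 log2, SE, adjusted p = 0.031, edgeR) were not called, and bec-1 (0.053 log2) and atg-7 (-0.037 log2) differed by less than their error.

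Early adult life was compared by day 7 against day 2, where 4 of the 10 genes changed, against 37.9% of all genes tested, and all 4 rose, against 19.3%, while 0 fell (edgeR and DESeq2), against 18.6%. At an unadjusted threshold of 0.05 there were 5, all of them higher on day 7. The median log2 difference of the 10 genes was 0.41, against 0.046 over all genes tested. The gene sqst-1 differed by 3.42 ± 0.23 log2 (SE, adjusted p = 9.58e-12, edgeR), which is 10.7-fold. The gene bec-1 differed by 0.95 ± 0.14 log2 (SE, adjusted p = 5.41e-06, edgeR), 1.93-fold, and unc-51 by 1.06 ± 0.31 log2 (SE, adjusted p = 0.00544, edgeR), 2.08-fold. The fourth gene was atg-7, at 0.48 ± 0.093 log2 (SE, adjusted p = 0.000129, edgeR), 1.39-fold. The values given above for days 2 and 7 did not overlap in any of the 4. The call of unc-51 was lost without replicate 1 (adjusted p = 0.0887), without replicate 2 (adjusted p = 0.0374) and without the filter on low counts (adjusted p = 0.0103), and that of atg-7 without replicate 1 (adjusted p = 0.0186) and without replicate 3 (adjusted p = 0.0173). With library size alone, which moved the median of all genes by 0.47 log2 in this comparison, 7 of the 10 rose, against 38.0% of all genes tested. Of all called genes 82.8% rose with this scaling, against 51.02% with TMM. The same scaling moved the linear coefficients of days 2 to 12 less, with 69.9% of the called genes rising, against 52.1% with TMM.

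Later adult life was compared by day 11 against day 7, where 0 of the 10 genes changed (edgeR), against 0.58% of all genes tested, with 0 risen, against 0.218%, and 0 fallen, against 0.363%. At an unadjusted threshold of 0.05 there were 2, bec-1 and atg-7, and DESeq2 called 1, atg-7, at 0.34 log2 (adjusted p = 0.00711). The median log2 difference of the 10 genes was 0.12, against -0.030 over all genes tested. The 3 comparisons share their samples of days 2 and 7, so their values are not independent of each other.

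**Figure D4:**
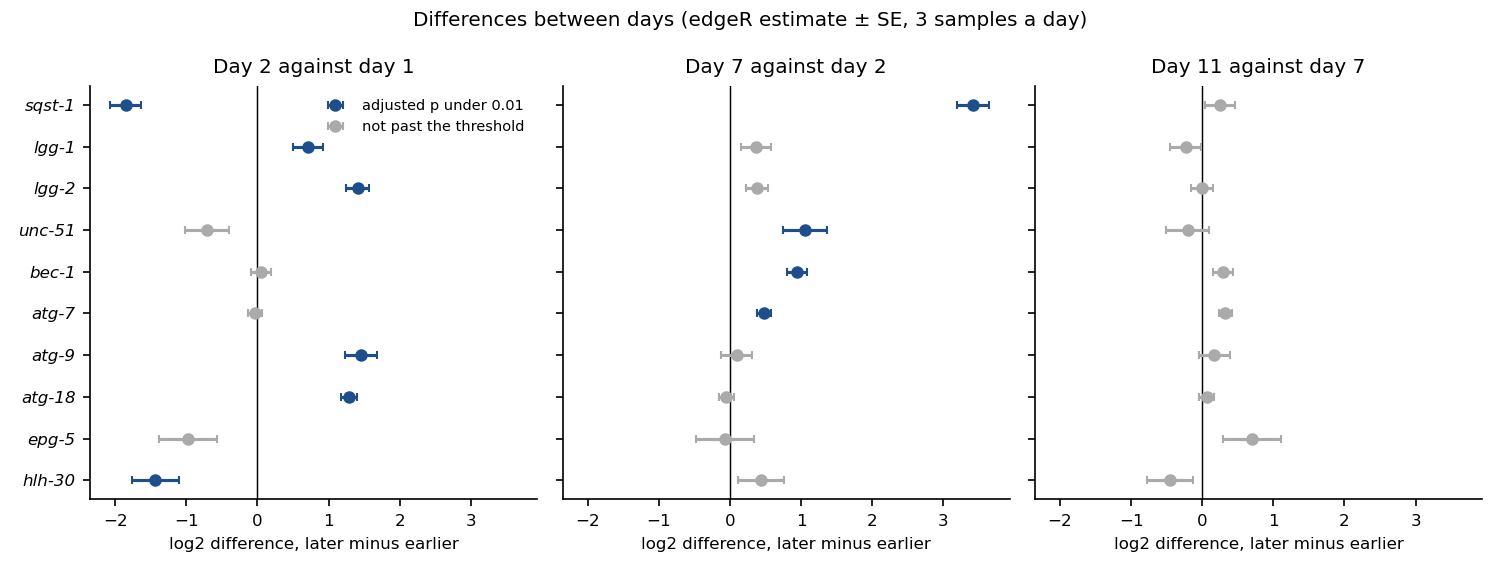
Log2 difference of each gene between days (horizontal axis, later minus earlier, edgeR estimate with SE, 3 samples a day). Blue points passed an adjusted p-value of 0.01. The value of sqst-1 was -1.85 for day 2 against day 1 and 3.42 for day 7 against day 2, and no gene passed for day 11 against day 7.

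Per kilobase of transcript, the mean of the daily levels followed the order lgg-1 (839 CPM per kilobase), lgg-2 (134), atg-18 (99.6), sqst-1 (89.1), bec-1 (59.7), atg-7 (48.5), atg-9 (32.2), unc-51 (23.3), hlh-30 (16.03) and epg-5 (1.55), a range of 541-fold. On day 2, lgg-2 and atg-18 overlapped, as did atg-7 and bec-1, and unc-51, hlh-30 and sqst-1 also overlapped as neighbours. On day 7 no neighbours in the order overlapped, and sqst-1 was the third, at 124 ± 8.56 CPM per kilobase (SD, n = 3). On day 11 only lgg-2, at 148 ± 13.8 CPM per kilobase, and sqst-1, at 147 ± 3.08 CPM per kilobase (SD, n = 3 each), overlapped. The level of sqst-1 relative to that of lgg-1 per length was 0.105 ± 0.0386 on day 1, 0.0166 ± 0.00178 on day 2 and 0.192 ± 0.00814 on day 11 (SD, n = 3 each), and these days did not overlap. The level of lgg-1 relative to that of lgg-2 per length was 10.4 ± 3.31 on day 1, 6.18 ± 0.271 on day 2 and 5.21 ± 0.337 on day 11 (SD, n = 3 each).

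The daily means of hlh-30 were set beside those of 9565 genes with a mean of at least 100 counts, as a description over 12 days that share the same libraries. The genes most like it were catp-7 (Pearson's r = 0.968), H14N18.4 (r = 0.966), B0454.6 (r = 0.961), pes-4 (r = 0.960) and sma-10 (r = 0.958). None of the autophagy genes was close to these values. The r was 0.41 for epg-5, 0.29 for unc-51 and 0.041 for sqst-1. It was -0.85 for lgg-2, -0.84 for atg-18, -0.79 for atg-9 and -0.71 for lgg-1. These 4 genes rose between days 1 and 2, where hlh-30 fell. Many other genes had an r as low or lower. Of the genes compared, 79.7% had a higher r than lgg-2, 78.6% than atg-18, 73.5% than atg-9 and 68.2% than lgg-1. The daily mean of hlh-30 was highest on day 1, and the part of this day in the r values was not tested.

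The other genes of the pathway were described from lists of their steps. Of 60 detected genes outside the 10, 27 rose and 13 fell between days 2 and 12, against 36.9% and 33.9% of all detected genes. The median linear coefficient of the 60 was 0.022 log2 per day, against 0.0063 over all detected genes. After removal of the length trend 21 rose and 16 fell, against 33.8% and 34.9% of all genes fitted. The counts of the single lists are to be read against these shares, and no list was tested as a set. Fusion with the lysosome had the most uniform list, in which 7 of 10 rose and 0 fell (edgeR), with a median of 0.072 log2 per day and rab-7 as its lowest coefficient, at -0.033 log2 per day (adjusted p = 0.0618, edgeR), and after removal of the length trend 6 rose and 1, vps-41, fell. The list also holds syx-17 and snap-29, which encode SNARE proteins of the fusion step and rose by 0.070 and 0.087 log2 per day. The largest coefficient in it was that of vps-11, a subunit of the HOPS tethering complex, at 0.13 log2 per day (adjusted p = 1.21e-12, edgeR). After removal of the length trend that of vps-11 was 0.058 log2 per day, against 0.097 for syx-17 and 0.10 for snap-29. With this removal vps-18 and vps-33.1 lost their calls and vamp-7 gained one. Of 9 detected genes for lysosomal membrane proteins and lipases 1 rose (ctns-1, a cystine transporter) and 5 fell, with a median of -0.072 log2 per day. Among the fallen, lipl-3 (-0.46 log2 per day, adjusted p = 6.23e-08, edgeR) and lipl-5 (-0.42 log2 per day) encode lysosomal lipases, while lmp-1, lmp-2 and scav-3 encode lysosomal membrane proteins. The gene lipl-3 is scarce, at 0.214 CPM on day 11 and 1.27 CPM on day 2. The other detected lipase genes, lipl-1 and lipl-2, were not called by their linear coefficient, and they rose between days 2 and 7. The difference of day 7 against day 2 was 2.63 log2 for lipl-1 (adjusted p = 1.46e-05, edgeR) and 2.24 log2 for lipl-2 (adjusted p = 0.0014, edgeR).

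The remaining steps moved in both directions. In the induction list 2 of 3 rose (epg-7 and atg-13, of which only atg-13 after removal of the length trend). In the nucleation list 1 of 3 rose (vps-34, 0.12 log2 per day, adjusted p = 4.4e-13, edgeR). After removal of the length trend vps-34 rose by 0.060 log2 per day (adjusted p = 9.71e-07, edgeR) and vps-15 fell by 0.040 log2 per day (adjusted p = 5.83e-05, edgeR). In the membrane supply list 1 of 4 rose (atg-2) and 1 fell (epg-3, -0.049 log2 per day). The coefficient of atg-2, a lipid transfer protein with a long transcript, was 0.17 log2 per day and 0.029 log2 per day after removal of the length trend, where it was not called (adjusted p = 0.0299, edgeR). In the conjugation list 3 of 8 rose, atg-4.1, atg-5 and atg-16.2, the last at 0.081 log2 per day. The 2 that fell were atg-3, the E2-like enzyme, at -0.055 log2 per day, and lgg-3, a ubiquitin-like protein, at -0.035 log2 per day. After removal of the length trend 3 rose and 0 fell. Among 8 detected cargo receptors and adaptors 3 rose (dct-1, allo-1 and pdr-1) and 2 fell (sepa-1 and fndc-1), and after removal of the length trend the 2 that fell were sepa-1 and pink-1. The mitophagy receptor gene dct-1 rose by 0.15 log2 per day (adjusted p = 3.64e-13, edgeR) and sepa-1, a receptor for germline granule proteins in embryos, fell by 0.19 log2 per day (adjusted p = 7.37e-06, edgeR).

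Signalling upstream of autophagy and HLH-30 had 5 risen (let-363, daf-15, aak-1, flcn-1 and xpo-1) and 2 fallen (raga-1 and ragc-1) of 9. After removal of the length trend 2 rose (aak-1 and flcn-1) and 4 fell (rsks-1, raga-1, ragc-1 and aak-2), so that the balance of this list turned. The gene let-363, which encodes the TOR kinase itself, had 0.15 log2 per day from the counts as deposited and -0.0039 log2 per day after the removal. The coefficient of aak-1, a catalytic subunit of AMP-activated kinase, was 0.20 log2 per day (adjusted p = 4.87e-17, edgeR) and 0.157 log2 per day after the removal. That of ragc-1, a Rag GTPase that acts upstream of the TOR kinase, was -0.077 log2 per day (adjusted p = 5.15e-09, edgeR). Among 6 other transcription factors tied to autophagy 4 rose (daf-16, pha-4, mml-1 and skn-1) and 1 fell (mxl-3), and after removal of the length trend the 4 that rose were pha-4, mml-1, mxl-2 and skn-1. The level of pha-4, the FOXA factor that acts in diet-related longevity, was 15.1 CPM on day 11 and 1.63 CPM on day 2 (0.38 log2 per day, adjusted p = 2.52e-14, edgeR). That of mxl-3, a repressor that acts opposite to HLH-30 on lysosomal lipase genes, was 5.18 CPM on day 11 and 26.98 CPM on day 2 (-0.23 log2 per day, adjusted p = 1.97e-11, edgeR). Between days 1 and 2 the 60 pathway genes had 28 risen, against 37.5% of all genes tested, and 10 fallen, against 37.9% (edgeR). Between days 2 and 7 they had 12 risen, against 19.3%, and 8 fallen, against 18.6% (edgeR).

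**Figure D5:**
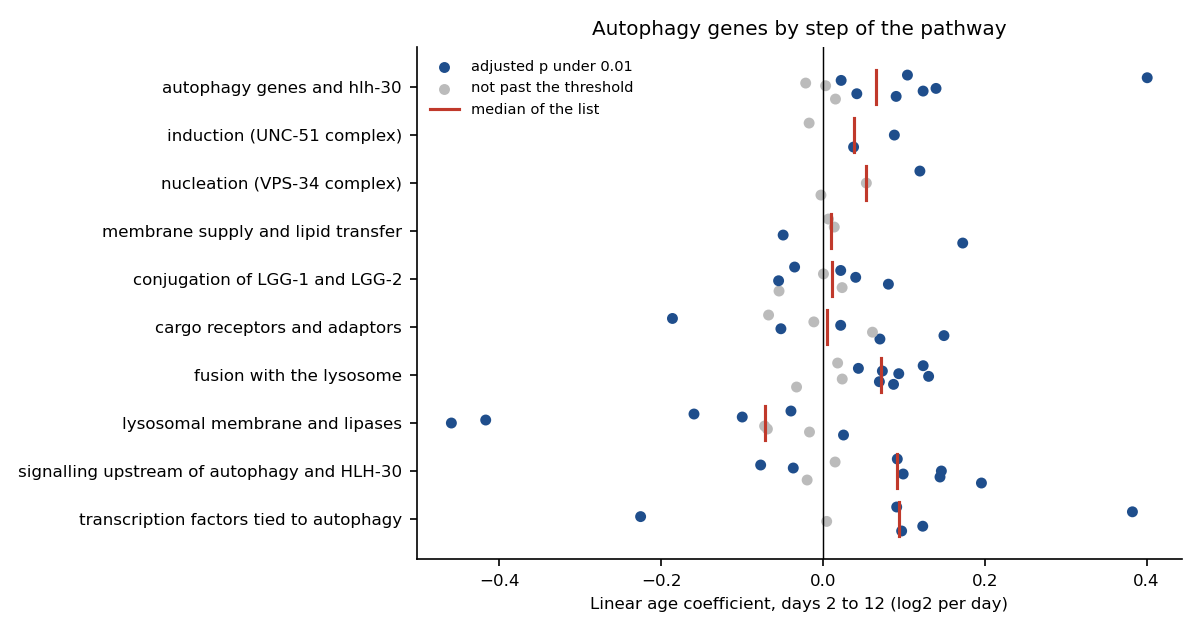
Linear age coefficient (horizontal axis, log2 per day, days 2 to 12) of the 10 genes and of the other detected pathway genes, by step (rows). Blue points passed an adjusted p-value of 0.01, grey points did not, and red bars are list medians, at 0.072 for fusion with the lysosome and -0.072 for the lysosomal membrane and lipases.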

How the data were processed

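RNA was extracted with TRIzol from whole-body samples of unsorted populations, and libraries were made with random hexamers after oligo(dT) enrichment and rRNA removal. The authors deposited raw counts, that is whole numbers of reads per gene without normalization. Their processing notes name STAR 2.7.3a, featureCounts and WBcel235, and the annotation and strand setting are not given in the sources used here. An entry named transgene, at most 0.001241% of the counts of a sample, was left out. Since PCR copies are not separate molecules, errors from counting are lower limits.

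Genes with at least 5 counts in 75% of samples were tested in R 4.3.3 with edgeR 4.0.16 (TMM, glmQLFit, glmQLFTest). Age was fitted as a third-degree orthogonal polynomial over the 31 samples of days 2 to 12, and days were compared in a fit of all 34 samples with day as a factor. P-values were adjusted by Benjamini-Hochberg over all genes tested, with a threshold of 0.01. The linear coefficient is a log2 change per day. The sequencing batch, a term in the model of the study, is not given by the labels and was not fitted, so batch and day cannot be told apart. Labels do not say how far samples of a day were separate cultures, so p-values measure the spread between these samples. For 1 sample of day 12 the replicate numbers of label and column differ, and it was used for its day only.

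Positions, exon lengths and annotation are those of Ensembl release 115 (WBcel235), with lengths for 20052 genes and symbols for 19708. DESeq2 1.42.0 and settings of scaling, filter, replicate and length trend were run as alternatives. The 10 genes, the lists of pathway genes and markers and the rule for named genes were chosen with earlier results of these data known. Besides the 10, the rule names the gene with the largest positive and that with the largest negative called linear coefficient of each list, any gene that accounts for a count of 5 or fewer, and the 5 genes most like hlh-30. Of 65 listed pathway genes 63 were matched by symbol. The tests were checked on simulated data.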

Additional observations from a re-analysis of the deposited data

How the results depend on the processing

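Over days 2 to 12, library size alone gave 10 changed and 8 risen, against 82.6% and 50.8% of all genes tested. Adding day 1 gave 10 changed and 8 risen, against 88.9% and 32.5%. Without the filter on low counts there were 7 changed and 5 risen, against 68.6% and 35.2%. Without replicate 1 or without replicate 2 there were 5 risen, against 32.9% and 33.5%. The numbers of called genes moved more in the following settings. Over days 2 to 12, 5 to 9 of the 10 genes changed when a replicate was left out, against 65.9% to 72.2% of all genes tested. With day as a factor tested jointly 4 changed, against 67.5%. The number fallen was 2 with the length trend removed, against 34.9%, and 2 with the replicate block and the length trend removed, against 34.9%. It was also 2 without the 2 libraries apart with the length trend removed, against 35.9%. Between days 1 and 2, 4 fell at an adjusted p-value under 0.05, against 41.3% of all genes tested. When a replicate was left out 1 to 2 fell, against 30.6% to 35.1%. Between days 2 and 7, 7 changed and 7 rose with library size alone, against 45.9% and 38.0% of all genes tested. When a replicate was left out 2 to 3 changed, all rising, against 18.3% to 31.8% changed and 10.5% to 15.4% risen. Between days 7 and 11, 1 changed and 1 rose with DESeq2, against 2.84% and 1.42% of all genes tested. Replicate numbers did not pair the samples (mean r of deviations 0.017 over 166 same-numbered pairs, 36 of them over 0.1, and 12 of 33 samples correlated best with their own number). The replicate block alone gave 7 changed and 6 risen over days 2 to 12, against 80.3% and 36.5% of all genes tested, with atg-9 no longer among the risen. Signs turned for these log2 values. The linear coefficient of lgg-1 was 0.021 with library size alone, 0.024 with the length trend removed, 0.029 with the replicate block and the length trend removed, 0.025 with day 1 added and 0.027 without the 2 libraries apart with the length trend removed. That of hlh-30 was -0.0061 without a filter, -0.0068 to 0.025 when a replicate was left out, -0.0010 with the replicate block, -0.069 with the length trend removed, -0.073 with the block and the length trend removed, -0.053 with day 1 added, -0.0096 without the 2 libraries apart and -0.073 without them and with the length trend removed. That of atg-9 was -0.039 with the length trend removed, -0.041 with the block as well and -0.040 without the 2 libraries and with the length trend removed. The block with the length trend removed gave -0.0053 for epg-5, and the setting without the 2 libraries and with the length trend removed gave -0.0022 for epg-5 and -7.00e-05 for atg-18. For day 2 against day 1, atg-7 was 0.061 with DESeq2 size factors, 0.094 without a filter, 0.061 with DESeq2, -0.039 to 0.066 when a replicate was left out, 0.13 with the length trend removed, 0.13 with the block as well and 0.084 with the 2 days alone, and bec-1 was -0.067 to 0.18 when a replicate was left out. For day 7 against day 2, atg-18 was 0.42 with library size alone, 0.086 with at least 10 counts in every sample and -0.086 to 0.019 when a replicate was left out, epg-5 was 0.39, 0.061 and -0.31 to 0.19 in these settings, and atg-9 was -0.015 to 0.28 when a replicate was left out, -0.19 with the length trend removed and -0.20 with the block as well. For day 11 against day 7, lgg-2 was 0.014 with DESeq2 size factors, 0.014 with DESeq2, -0.069 to 0.070 when a replicate was left out, 0.092 with the length trend removed and 0.092 with the block as well. The cause of these turns was not tested. Precision was limited by the 2 or 3 samples of a day and, for epg-5, by counts as low as 45 in a sample.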
